A study of Mus musculus with 4 samples.

Results

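The 32 genes described here carry glucose into cells, break it down to lactate, or are switched on when oxygen is low. They were taken from a fixed list and looked up by symbol in the count tables, and all 32 were found among 27998 rows. They comprise 3 glucose transporters (Slc2a1, Slc2a2, Slc2a3), 13 enzyme genes of the glycolytic chain (Hk1, Hk2, Gpi1, Pfkl, Pfkm, Pfkp, Aldoa, Tpi1, Gapdh, Pgk1, Pgam1, Eno1, Pkm), the lactate dehydrogenases Ldha and Ldhb, the glucose-responsive gene Txnip, 12 hypoxia targets (Vegfa, Bnip3, Egln3, Egln1, Pdk1, Ankrd37, Ndrg1, P4ha1, P4ha2, Car9, Adm, Kdm3a) and the cytokine gene Mif.

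Single cells came from mouse embryonic pancreas at E15.5, captured on the 10x Genomics platform. The OGT KO mice were PdxCre;OGTflox/flox;CAG GFP, in which Cre under the Pdx promoter acts on floxed Ogt and endogenous GFP was the sorting signal. The control mice, labelled WT, were OGTflox/flox animals with unrecombined Ogt, and their cells were sorted on an E-cadherin GFP signal according to the series design, while the sample protocol names GFP for both. Sort and genotype therefore cannot be told apart, the number of embryos pooled is not given in the sources used here, and both samples of a genotype are technical sequencing repeats held in 1 table, so n is 1 library per genotype. No difference has a replicate check or a test. Levels are UMIs scaled to equal class totals (CPM, counts per 1000000 UMIs of a cell class, where a UMI is 1 captured transcript copy), and bracketed ranges are exact 95% intervals that cover counting error only.

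Glycolysis turns glucose into pyruvate, and lactate dehydrogenase turns pyruvate into lactate while restoring the cofactor that glycolysis needs. Low oxygen stabilises the transcription factor HIF, which binds the letters ACGTG or GCGTG near many of these genes and raises transporters, glycolytic enzymes and Ldha, as well as enzymes that divert pyruvate from mitochondria. Mature beta cells are known for keeping lactate dehydrogenase low and for using Slc2a2 and glucose-driven metabolism to sense sugar. OGT, the enzyme encoded by Ogt, attaches O-GlcNAc, a sugar made from glucose, to cellular proteins.

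After filtering, the OGT KO library held 554 cells (median 16206 UMIs) and the control library 919 cells (median 10867 UMIs), with 0 barcodes in common. Classes were named from marker genes after clustering without the genes described here. Acinar-like cells numbered 92 in the OGT KO library and 50 in the control library, trunk/ductal-like cells 42 and 35, and endocrine-like cells 42 and 20. A cluster of 90 OGT KO cells led by Cym and Serpina1b stayed unnamed and is called the Cym-high cluster; 142 OGT KO cells were mesenchyme-like and 66 mesothelium-like. Cluster 0 met the naming rule for neutrophils, but that name was set aside. Neutrophil markers summed to 25227 CPM in its 25 OGT KO cells and 653 CPM in its 144 control cells. The cells of each library are therefore given side by side without being taken for 1 type. Although the label is pancreatic epithelium, those 3 pancreatic classes and the Cym-high cluster made up 48.0% of OGT KO cells (43.8 to 52.3) and 11.4% of control cells (9.44 to 13.7), and leukocyte-like cells made up 3.25% and 71.3%. Xist had a UMI in 99.1% of OGT KO cells and 22.7% of control cells, and Y-linked genes in 0 of 554 (up to 0.664%) and 53.1%, so the embryos differed in sex composition too. Ogt itself measured 38.3 CPM in OGT KO and 37.1 CPM in control acinar-like cells (ratio 1.03, 0.729 to 1.48), 62.9 and 86.7 in trunk/ductal-like cells (0.725, 0.476 to 1.11) and 29.5 and 123 in endocrine-like cells (0.241, 0.125 to 0.463). In leukocyte-like cells Ogt measured 49.7 CPM in the OGT KO and 61.8 CPM in the control library (0.804, 0.456 to 1.32). Counts are per gene, so a transcript that lost only the floxed part could still be counted. For every class, OGT KO names the library that a cell came from, and loss of Ogt in single cells was not tested.

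The regulatory letters that low oxygen acts through can be seen in the promoters of 4 genes that differed between pancreatic classes in both libraries, as described below. Each line is the + strand of the 250 bases upstream of the annotated start, from RefSeq on GRCm38.p6, and capitals mark ACGTG or GCGTG on either strand (read on the opposite strand as CACGT or CACGC, so that CACGTG is a match on both). Car9 (carbonic anhydrase that exports acid) lies at chr4:43506776-43507025 and Ldha at chr7:46845554-46845803 (the first of its annotated starts in the table, as for Pdk1). Pdk1 (a kinase that inhibits pyruvate dehydrogenase) lies at chr2:71872974-71873223 and Txnip (an arrestin-like protein that limits glucose uptake) at chr3:96557707-96557956.
Car9: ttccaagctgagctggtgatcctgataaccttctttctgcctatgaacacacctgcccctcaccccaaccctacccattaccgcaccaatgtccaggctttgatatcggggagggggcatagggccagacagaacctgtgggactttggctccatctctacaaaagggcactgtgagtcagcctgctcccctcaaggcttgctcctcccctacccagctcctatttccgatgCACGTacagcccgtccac
Ldha: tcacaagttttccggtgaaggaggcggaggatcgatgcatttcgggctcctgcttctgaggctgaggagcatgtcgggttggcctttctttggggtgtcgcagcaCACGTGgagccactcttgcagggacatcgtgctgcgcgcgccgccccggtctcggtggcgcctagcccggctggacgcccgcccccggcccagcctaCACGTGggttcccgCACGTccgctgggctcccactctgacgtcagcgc
Pdk1: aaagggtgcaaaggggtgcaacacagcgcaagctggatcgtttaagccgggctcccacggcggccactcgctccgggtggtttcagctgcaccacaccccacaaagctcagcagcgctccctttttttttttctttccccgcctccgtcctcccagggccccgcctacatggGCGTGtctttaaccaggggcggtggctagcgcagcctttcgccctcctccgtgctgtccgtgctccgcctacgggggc
Txnip: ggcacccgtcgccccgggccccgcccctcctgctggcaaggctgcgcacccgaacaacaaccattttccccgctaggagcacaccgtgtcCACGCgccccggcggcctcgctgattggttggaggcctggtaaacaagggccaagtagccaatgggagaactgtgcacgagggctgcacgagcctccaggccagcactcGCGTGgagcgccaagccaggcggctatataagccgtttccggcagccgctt
Over windows of 300 bases (250 before and 50 after the start), 33 of the 44 annotated promoters of these genes held at least 1 such run (75%), covering 27 of the 30 genes in the table, against 43.8% of 32851 mouse promoters. The windows of these genes also held a median of 20 CG dinucleotides, against 7 over all promoters, and both runs contain CG. A match describes letters and not a bound site.

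The 3 glucose transporters were found in different cell types, as the heat map of levels shows. Slc2a1, the widespread basal transporter, measured 31.8 CPM (25.6 to 38.9) in acinar-like cells, 42.7 (29.9 to 59.1) in trunk/ductal-like cells and 16.9 (8.72 to 29.5) in endocrine-like cells of the OGT KO library, against 30.2 (21.4 to 41.2), 24.2 (12.5 to 42.3) and 5.84 (0.148 to 32.6) in control cells. Endocrine-like cells were lowest of the 3 in both libraries, although the control value is a single UMI. In the other OGT KO classes Slc2a1 lay between 24.4 in lymphoid-like cells and 54.4 in cluster 0, and the intervals of neighbouring classes overlap.

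**Figure D1:**
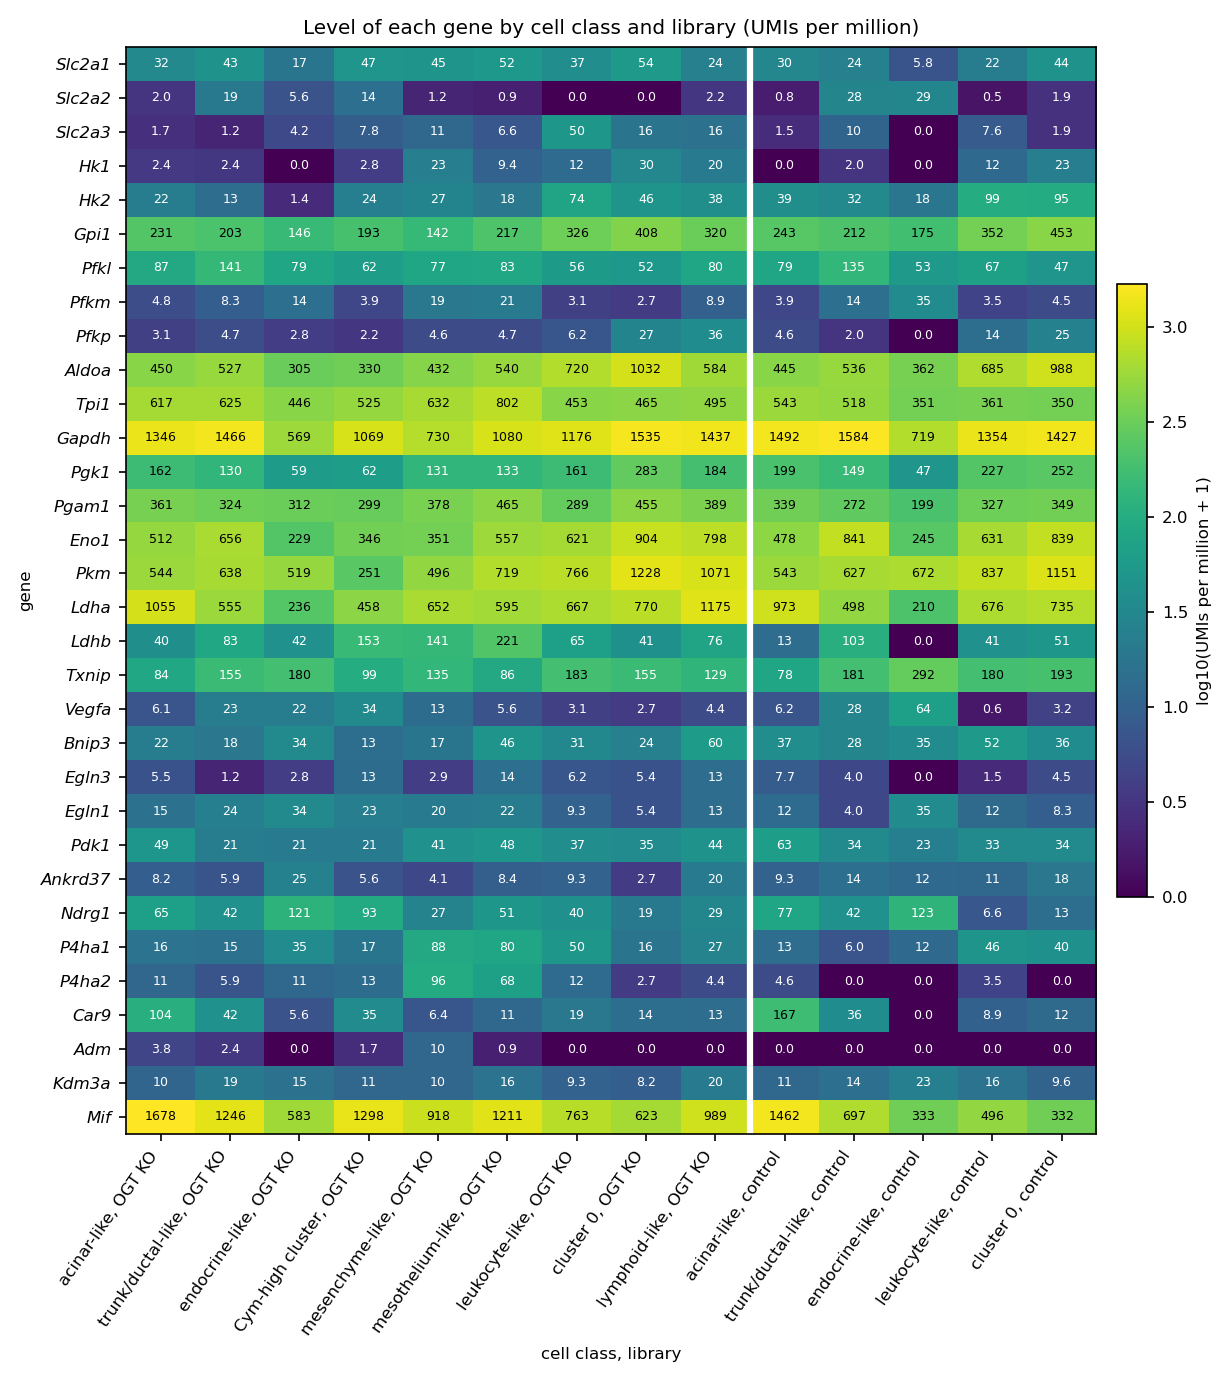
Level of each of the 32 genes (rows, CPM, printed in each cell; colour is log10 of the level plus 1) in every class with at least 15 cells, OGT KO classes left of the white line and control classes right of it. Of the columns drawn, the endocrine-like ones hold the lowest Gapdh and Ldha values of their library, 569 and 236 CPM in OGT KO cells and 719 and 210 CPM in control cells.

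Slc2a2, the low-affinity transporter of pancreatic progenitors, beta cells and liver, was higher in trunk/ductal-like than in acinar-like cells of both libraries. Its endocrine-like level rests on too few UMIs to be placed. It measured 19.0 CPM (10.8 to 30.8) in OGT KO trunk/ductal-like cells and 28.2 (15.4 to 47.4) in control ones, 14.0 (9.06 to 20.7) in the Cym-high cluster, and 5.62 (1.53 to 14.4) and 29.2 (9.49 to 68.2) in OGT KO and control endocrine-like cells. Acinar-like cells held 2.05 (0.752 to 4.46) in the OGT KO library and 0.773 (0.0196 to 4.31) in the control library. Within the OGT KO library the acinar-like level was 0.108 of the trunk/ductal-like level (0.0346 to 0.291), and the control library had 1 acinar-like UMI against 14. At an equal depth of 5000 UMIs a cell, 9.52% of OGT KO and 8.57% of control trunk/ductal-like cells had a Slc2a2 UMI (28.6% and 22.9% at full depth). Leukocyte-like cells, which should lack the gene, gave 0 of 18 OGT KO cells (up to 16.7%) and 0.332% of control cells, which in the control library is below the trunk/ductal-like share. The endocrine-like levels rest on 4 OGT KO UMIs and 5 control UMIs, in 3 and 2 cells.

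Slc2a3, a high-affinity transporter of neurons and blood cells, had few UMIs in epithelium. Levels ranged from 1.19 to 4.22 CPM in the 3 OGT KO pancreatic classes, with 7.84 in the Cym-high cluster, and from 0 to 10.1 CPM in the control classes. It measured 49.7 CPM (16 UMIs) in OGT KO leukocyte-like cells and 7.55 CPM in control ones, with every OGT KO UMI in the 5 highest of 18 cells.

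The 13 glycolytic enzyme genes together took the smallest share of transcripts in endocrine-like cells, among the classes with at least 15 cells in each library. Their summed UMIs were 0.434% of the total in OGT KO and 0.441% in control acinar-like cells, 0.474% and 0.492% in trunk/ductal-like cells, and 0.268% and 0.288% in endocrine-like cells. Outside the epithelium the OGT KO share was 0.344% in mesenchyme-like and 0.465% in mesothelium-like cells, and leukocyte-like cells held 0.466% in the OGT KO and 0.497% in the control library. Among the same classes the highest shares were in cluster 0, at 0.647% in its OGT KO and 0.600% in its control cells, which differ in their markers as given above. The Cym-high cluster, at 0.317%, stood nearer to endocrine-like than to trunk/ductal-like cells.

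The same order held cell by cell at equal depth in the plot of enzyme UMIs per cell. After thinning to 5000 UMIs the median cell carried 21 enzyme UMIs in OGT KO and 20.5 in control acinar-like cells, 21.5 and 23 in trunk/ductal-like cells, and 14 and 11 in endocrine-like cells. The Cym-high cluster had a median of 15, mesenchyme-like cells 17 and cluster 0 had 31 in its OGT KO and 27 in its control cells. Single cells of neighbouring classes overlapped widely.

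**Figure D2:**
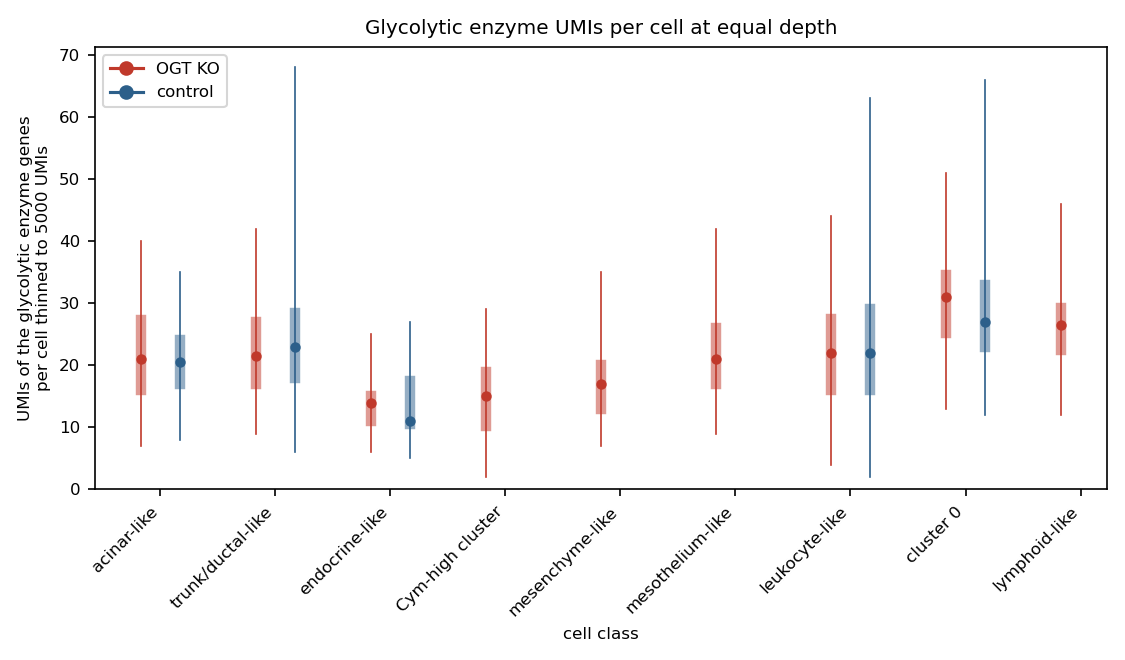
UMIs of the 13 glycolytic enzyme genes per cell thinned to 5000 UMIs, by class, with OGT KO cells left (red) and control cells right (blue); the point is the median, the thick bar the quartiles and the thin line the lowest to highest cell. Endocrine-like medians of 14 and 11 are the lowest pair, and the cluster 0 medians of 31 and 27 the highest, among classes with at least 15 cells at that depth.

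Not every step followed that order. Gapdh, the dehydrogenase of the middle step, measured 1346 CPM in acinar-like, 1466 in trunk/ductal-like and 569 in endocrine-like cells of the OGT KO library, against 1492, 1584 and 719 in control cells. Eno1 (enolase), at 512, 656 and 229 in OGT KO cells and 478, 841 and 245 in control cells, and Pgk1 (phosphoglycerate kinase), at 162, 130 and 59.0 in OGT KO cells and 199, 149 and 46.7 in control cells, had the same low endocrine-like value. Pkm (pyruvate kinase) did not, with 544, 638 and 519 CPM in OGT KO cells and 543, 627 and 672 in control cells. Pgam1 (phosphoglycerate mutase) measured 361, 324 and 312 CPM in OGT KO cells and 339, 272 and 199 CPM in control cells. For Gpi1, Aldoa and Tpi1 the OGT KO endocrine-like level, 146, 305 and 446 CPM, was again the lowest of the 3 classes.

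The hexokinase and phosphofructokinase steps are served by paralogues, and their mix differed between cell types. The shares below are shares of UMIs, not corrected for transcript length, and are set side by side between classes only. Of the UMIs of Hk1 and Hk2 (hexokinases, the first step), Hk2 made up 90.0% (80.5 to 95.9) in OGT KO acinar-like cells and 50 of 50 in control ones, and 89.4% (76.9 to 96.5) in the Cym-high cluster. In OGT KO mesenchyme-like cells Hk2 made up 54.7% (43.5 to 65.4), an interval that does not reach the acinar-like one. Hk1 had 7 UMIs (2.39 CPM) in OGT KO and 0 (floor of 3 UMIs, 2.32 CPM) in control acinar-like cells, and 22.7 CPM in OGT KO mesenchyme-like cells. In endocrine-like cells Hk2 had 1 OGT KO UMI (1.41 CPM) and 3 control UMIs (17.5 CPM), and Hk1 had 0 in both libraries.

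Among the phosphofructokinases, which catalyse the committed step, Pfkl held 91.7% (87.8 to 94.7) of UMIs in OGT KO and 90.3% (83.2 to 95.04) in control acinar-like cells. In cluster 0 Pfkl held 63.3% (43.9 to 80.1) in the OGT KO cells, with Pfkp at 33.3%, and 61.3% (52.0 to 70.1) in the control cells, with Pfkp at 32.8%, although only the OGT KO cells carried high neutrophil markers. Pfkm, the muscle form, was seen in endocrine-like cells at 14.1 CPM in OGT KO (10 UMIs) and 35.1 CPM in control cells (6 UMIs). Pfkp also varied inside the control leukocyte-like class, at 46.3 CPM in the cluster led by Lgals3 and Ly6c2 and 3.34 CPM in the one led by Lyve1 and Pf4.

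Lactate dehydrogenase genes separated the pancreatic classes in both libraries. Ldha, whose product favours lactate formation, measured 1055 CPM (1018 to 1093) in acinar-like cells, 555 (506 to 608) in trunk/ductal-like cells and 236 (202 to 275) in endocrine-like cells of the OGT KO library. In the control library the 3 values were 973, 498 and 210 CPM. Acinar-like cells were highest and endocrine-like cells lowest in both, with intervals that do not overlap within the OGT KO library. A UMI of Ldha was found at equal depth in 100% of OGT KO and 97.9% of control acinar-like cells, and in 64.3% and 66.7% of endocrine-like cells. The 13 OGT KO mast/basophil-like cells held 2745 CPM of Ldha, the highest level of that gene in any class.

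Ldhb, whose product favours the reverse reaction, was highest in trunk/ductal-like cells among the 3 pancreatic classes of both libraries. It measured 39.6 CPM (32.7 to 47.5) in acinar-like, 83.0 (64.7 to 105) in trunk/ductal-like and 42.2 (28.5 to 60.2) in endocrine-like cells of the OGT KO library, against 13.1 (7.66 to 21.0), 103 (76.5 to 135) and 0 (floor 17.5 CPM) in control cells. The Cym-high cluster held 153 CPM, mesenchyme-like cells 141 and mesothelium-like cells 221 in the OGT KO library. As a share of Ldha and Ldhb UMIs, Ldhb was 3.62% (3.001 to 4.33) in OGT KO and 1.33% (0.779 to 2.13) in control acinar-like cells, and 13.0% (10.3 to 16.2) and 17.1% (13.0 to 21.9) in trunk/ductal-like cells. It reached 25.1% (22.5 to 27.7) in the Cym-high cluster and 27.1% (24.2 to 30.2) in mesothelium-like cells, both above the OGT KO trunk/ductal-like interval. OGT KO endocrine-like cells stood at 15.2% (10.5 to 20.9), and control ones had 0 of 36 UMIs (up to 9.74%).

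**Figure D3:**
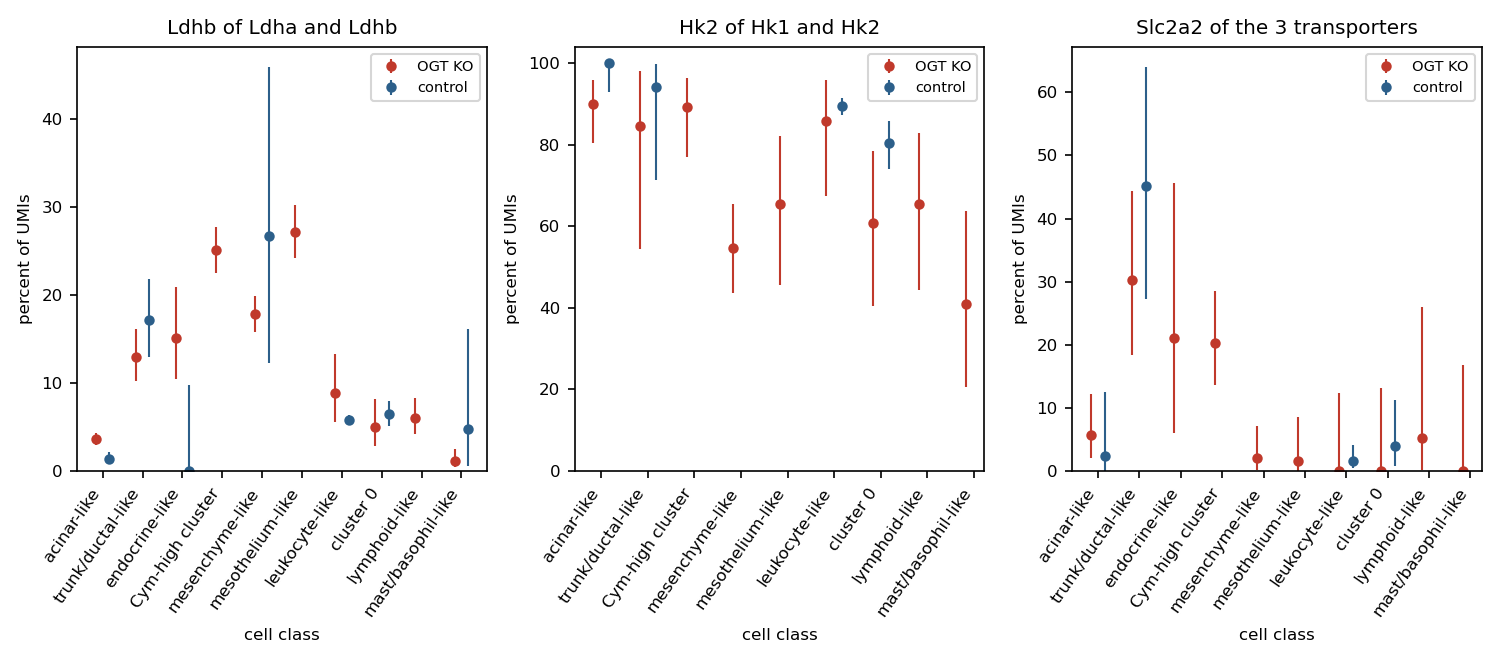
Share of UMIs (percent, with exact 95% counting intervals) that Ldhb takes of Ldha and Ldhb, Hk2 of Hk1 and Hk2, and Slc2a2 of the 3 transporters, by class, OGT KO left (red) and control right (blue), leaving out classes with too few UMIs of the genes compared and keeping small control classes. Ldhb is below 4% in both acinar-like points and at 25.1% and 27.1% in the Cym-high cluster and mesothelium-like cells.

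Txnip, induced by glucose through the factor ChREBP, was lowest in acinar-like cells among the 3 pancreatic classes. Its level was 84.0 CPM (73.9 to 95.2) in acinar-like, 155 (130 to 184) in trunk/ductal-like and 179.95 (150.1 to 214) in endocrine-like cells of the OGT KO library. Control cells of these classes held 78.1 (63.6 to 94.9), 181 (146 to 223) and 292 (217 to 385). The Cym-high cluster, at 98.5, and mesothelium-like cells, at 86.3, were close to acinar-like cells, and leukocyte-like cells held 183 in the OGT KO and 180.2 in the control library.

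The 12 hypoxia targets did not share a common cell type. Car9 was highest in acinar-like cells, at 104 CPM (92.5 to 116) in OGT KO and 167 (145 to 191) in control acinar-like cells. Trunk/ductal-like cells held 41.5 and 36.3 CPM, endocrine-like cells 5.62 CPM and 0 UMIs (floor 17.5 CPM), and leukocyte-like cells 18.6 and 8.91 CPM. Ndrg1, a stress-responsive gene of epithelia, was instead highest in endocrine-like cells, at 121 CPM in the OGT KO and 123 in the control library, against 64.9 and 77.3 in acinar-like and 41.5 and 42.3 in trunk/ductal-like cells.

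Vegfa, the signal that draws blood vessels, was lowest in acinar-like cells among the pancreatic classes. It measured 6.15 CPM (3.64 to 9.72) in acinar-like, 22.5 (13.6 to 35.2) in trunk/ductal-like and 22.5 (12.9 to 36.5) in endocrine-like cells and 34.1 (26.1 to 43.9) in the Cym-high cluster of the OGT KO library. Control acinar-like cells held 6.19 (2.67 to 12.2), trunk/ductal-like cells 28.2 (15.4 to 47.4), endocrine-like cells 64.3 (32.1 to 115) and leukocyte-like cells 0.619. At equal depth a Vegfa UMI was found in 9.52% of OGT KO trunk/ductal-like cells and in 7 of 35 control ones. In leukocyte-like cells it was found in 0 of 18 OGT KO cells (up to 16.7%) and 0.332% of control cells, and at full depth 1 of the 18 OGT KO cells held 1 UMI (3.10 CPM).

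The collagen-modifying prolyl hydroxylases P4ha1 and P4ha2 were highest in mesenchyme-like and mesothelium-like cells among the OGT KO classes. OGT KO mesenchyme-like cells held 87.7 and 96.4 CPM and mesothelium-like cells 79.8 and 67.6, while the 3 pancreatic classes of both libraries ranged from 6.05 to 35.1 CPM for P4ha1 and from 0 to 11.2 CPM for P4ha2. Adm (the vasodilator adrenomedullin) was seen in the OGT KO library only as a low signal, highest in mesenchyme-like cells at 10.5 CPM (18 UMIs), and had 0 UMIs in every control class.

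The oxygen sensors and the regulators of mitochondria had few UMIs per class. Pdk1 measured 49.2, 21.3 and 21.1 CPM in acinar-like, trunk/ductal-like and endocrine-like cells of the OGT KO library and 62.6, 34.3 and 23.4 CPM in control cells, so acinar-like cells were highest of the 3 in both. Egln3 and Egln1 encode the prolyl hydroxylases that mark HIF for destruction when oxygen is present. Egln3 ranged from 1.19 to 5.46 CPM over the 3 OGT KO pancreatic classes, with 12.9 in the Cym-high cluster, and from 0 to 7.73 in control ones. Egln1 measured 15.03, 23.7 and 33.7 CPM in the 3 OGT KO classes and 12.4, 4.03 and 35.1 CPM in control ones. Bnip3, which starts removal of mitochondria, ranged from 13.4 CPM in the Cym-high cluster to 60.0 in lymphoid-like cells of the OGT KO library and from 28.2 to 52.5 in the control trunk/ductal-like and leukocyte-like classes. Ankrd37 and Kdm3a (a histone demethylase) stayed between 2.72 and 25.3 CPM in every class with at least 15 cells.

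Mif encodes a secreted cytokine and is also a known hypoxia-responsive gene. By UMIs, not divided by length, Mif had the highest level of the 32 genes in OGT KO acinar-like, endocrine-like, Cym-high, mesenchyme-like and mesothelium-like cells, and Gapdh had it in the other OGT KO classes of at least 15 cells and in all 5 control ones. Mif measured 1678, 1246 and 583 CPM in acinar-like, trunk/ductal-like and endocrine-like cells of the OGT KO library, against 1462, 697 and 333 CPM in control cells. The OGT KO Cym-high cluster held 1298 CPM of Mif and 1069 of Gapdh, mesenchyme-like cells 918 and 730, and mesothelium-like cells 1211 and 1080, while leukocyte-like cells held 763 CPM of Mif and 1176 of Gapdh in the OGT KO and 496 and 1354 in the control library. The lowest levels were those of Slc2a3 at 1.71 CPM in OGT KO acinar-like cells, Slc2a3 and Egln3 at 1.19 in OGT KO trunk/ductal-like cells, and Hk1 and Adm at 0 in OGT KO endocrine-like cells. Control endocrine-like cells, with 171129 UMIs in all, listed 8 of the 32 genes at 0, where the floor is 17.5 CPM.

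Set against each other within a library, acinar-like cells had higher levels of Ldha, Gapdh, Pgk1 and Eno1 than endocrine-like cells. A gene counts as measured with at least 20 UMIs over the compared groups and as higher or lower at a 1.5-fold ratio. In the OGT KO library 10 of 26 measured genes were higher in acinar-like than in endocrine-like cells, where 16.9% of all 9597 measured genes were, and 9 were lower, where 40.9% of all genes were. In the control library 11 of 19 were higher (25.2% of 6678 genes) and 3 lower (37.3%). The median log2 ratio of the measured members was 0.18 in the OGT KO and 0.77 in the control library, against -0.36 and -0.20 over all genes.

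Of the 19 genes measured in both libraries, 9 were higher in acinar-like cells in both (Car9, Eno1, Gapdh, Hk2, Ldha, Mif, Pdk1, Pgk1, Slc2a1), 3 were lower in both (Egln1, Ndrg1, Txnip) and 0 went opposite ways. Ldha was 4.47-fold higher (3.82 to 5.25) in acinar-like than in endocrine-like cells of the OGT KO library and 4.62-fold (3.32 to 6.63) of the control library. In the OGT KO and control libraries Gapdh was 2.36-fold (2.13 to 2.63) and 2.08-fold higher (1.73 to 2.51), and Pgk1 2.75-fold (2.00 to 3.86) and 4.25-fold (2.13 to 9.95). Both libraries thus gave glycolytic ratios above 1.5 whose intervals exclude 1. Car9 was 18.5-fold higher (7.14 to 68.2) in the OGT KO library and had 216 acinar-like and 0 endocrine-like UMIs in the control library. For Slc2a1 and Hk2 the control intervals, 0.873 to 209 and 0.712 to 11.1, include 1. Txnip was lower at 0.467 (0.376 to 0.583) in the OGT KO and 0.267 (0.189 to 0.383) in the control library, and Ndrg1 at 0.537 (0.414 to 0.701) in the OGT KO and 0.630 (0.391 to 1.06) in the control library.

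**Figure D4:**
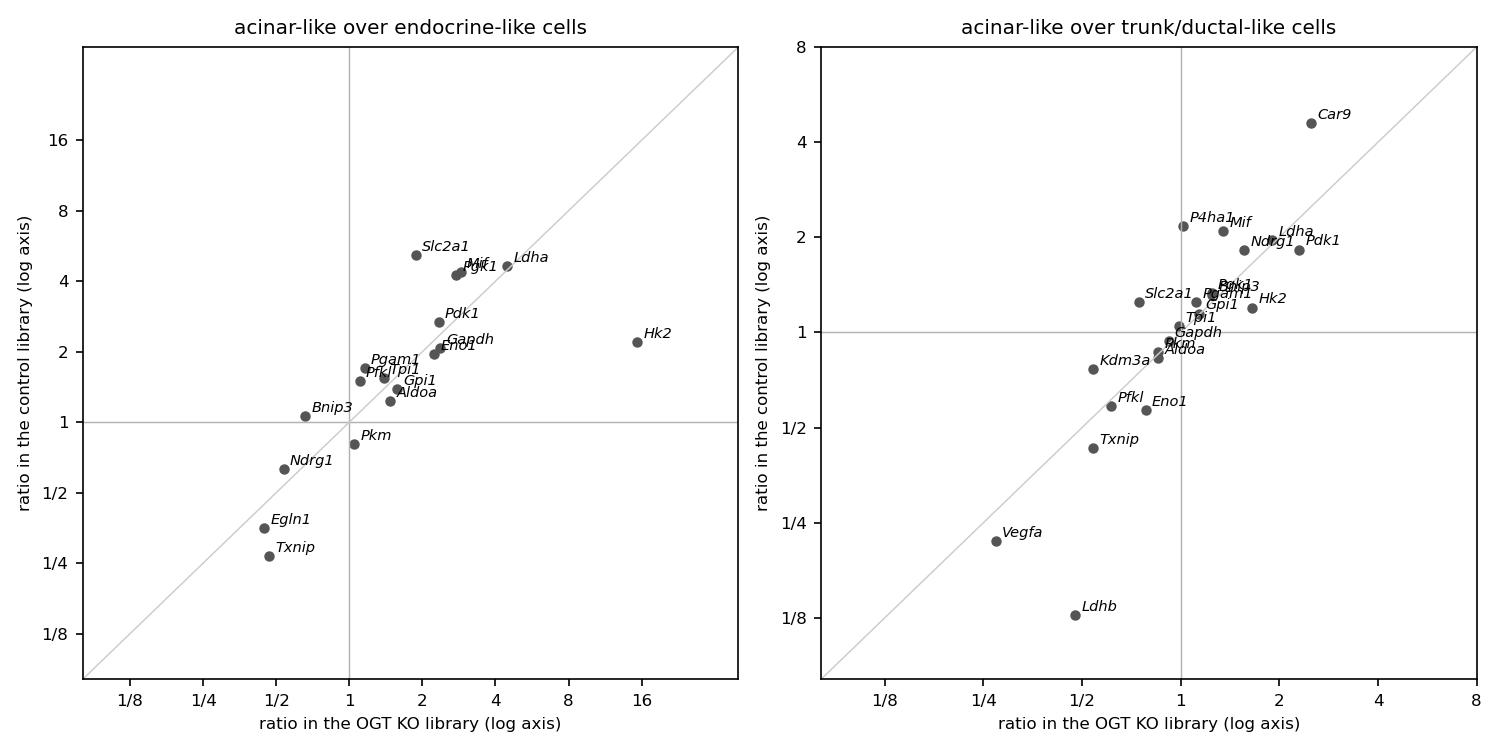
Ratio of a gene's level between pancreatic classes in the OGT KO library (x axis) against the same ratio in the control library (y axis), both on log axes, for measured genes with a UMI in every class compared; the diagonal marks equal ratios. Ldha lies at 4.47 and 4.62 in the left panel, and Car9 (2.50 and 4.60) and Ldhb (0.477 and 0.128) at the ends of the right panel.

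The endocrine-like value of a control gene often rests on few cells, since the 5 highest of 20 cells held 62.6% of Gapdh UMIs. TMM scaling multiplied each acinar-like over endocrine-like ratio by 1.43 in the OGT KO library and 1.52 in the control library. The counts became 14 higher and 6 lower in the OGT KO and 15 higher and 2 lower in the control library. Ndrg1 was then no longer 1.5-fold lower in either library. Shares of all genes under TMM scaling are not given here, so the scaled counts are not read as a result about these genes.

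Acinar-like and trunk/ductal-like cells differed in both lactate dehydrogenases and in several hypoxia targets. In the OGT KO library 6 of 27 measured genes were higher in acinar-like cells (9.09% of all 9469 genes) and 8 lower (33.6%). In the control library 6 of 22 were higher (13.5% of 7469 genes) and 5 lower (32.8%). Car9, Ldha, Ndrg1 and Pdk1 were higher in both libraries, and Ldhb, Pfkl, Txnip and Vegfa lower in both, with 0 of 22 opposite. TMM scaling multiplied each of these ratios by 1.29 in the OGT KO and 1.31 in the control library. The counts were then 10 higher and 3 lower in the OGT KO and 12 higher and 3 lower in the control library. Pfkl was then no longer 1.5-fold lower in either library, and Txnip no longer in the OGT KO library. The scaled counts again have no all-gene share beside them and are not read further.

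Ldha was 1.90-fold (1.72 to 2.10) higher in acinar-like than in trunk/ductal-like cells of the OGT KO library and 1.95-fold (1.70 to 2.25) of the control library. Its paralogue Ldhb stood at 0.477 (0.352 to 0.652) of the trunk/ductal-like level in the OGT KO and 0.128 (0.0692 to 0.225) in the control library. The pair thus lay on opposite sides of 1 in both libraries. Only Pfkl among the enzyme genes was at least 1.5-fold lower in acinar-like cells in both libraries, and only before TMM scaling. Pfkl stood at 0.615 in the OGT KO and 0.584 in the control library. Gapdh was close to 1, at 0.918 in the OGT KO library, where TMM scaling put it at 1.19, and 0.941 in the control library. Pdk1 was 2.30-fold higher (1.41 to 3.998) in the OGT KO and 1.83-fold (1.07 to 3.29) in the control library, and Vegfa stood at 0.273 (0.135 to 0.549) in the OGT KO and 0.219 (0.0797 to 0.560) in the control library.

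Trunk/ductal-like cells also had higher levels of several enzyme genes than endocrine-like cells. In the OGT KO library 11 of 24 measured genes were higher in trunk/ductal-like cells (21.1% of all 7925 genes) and 4 lower (26.4%), and in the control library 7 of 17 were higher (23.6% of 4913 genes) and 3 lower (23.2%). Eno1, Gapdh, Ldha, Ldhb, Mif, Pfkl and Pgk1 were higher in both libraries and Ndrg1 lower in both. In the OGT KO and control libraries Eno1 was 2.86-fold (2.40 to 3.43) and 3.42-fold (2.49 to 4.82) higher, and Ldha 2.35-fold (1.97 to 2.82) and 2.37-fold (1.66 to 3.46). Ndrg1 stood at 0.343 (0.225 to 0.514) in the OGT KO and 0.345 (0.179 to 0.664) in the control library. TMM scaling left the OGT KO counts at 11 and 4 and made the control counts 11 and 2, with no all-gene share under that scaling given here.

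Against leukocyte-like cells the acinar profile was high in Car9 and Mif and low in Hk2, P4ha1, Slc2a3 and Txnip. In the OGT KO library 6 of 25 measured genes were higher in acinar-like cells (30.5% of all 9037 genes) and 6 lower (28.2%), and in the control library 6 of 29 were higher (22.9% of 10946 genes) and 9 lower (36.5%). Car9 was 5.58-fold (2.53 to 15.3) higher in the OGT KO and 18.7-fold (14.3 to 24.8) in the control library, and Ndrg1 1.61-fold (0.918 to 3.08) in the OGT KO and 11.8-fold (8.37 to 16.8) in the control library. Hk2 stood at 0.289 (0.178 to 0.484) of the leukocyte-like level in the OGT KO and 0.389 (0.286 to 0.518) in the control library. Member shares were near or below the background of all genes in both directions.

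The Cym-high cluster, present in the OGT KO library only, had lower Pkm, Eno1, Pgk1 and Pfkl and higher Ldhb than trunk/ductal-like cells of that library. Of 26 measured genes, 6 were higher (17.4% of all 9331 genes) and 7 lower (11.5%). Pkm stood at 0.394 (0.347 to 0.447), Eno1 at 0.528 (0.470 to 0.594), Pgk1 at 0.472 (0.359 to 0.620) and Pfkl at 0.436 (0.334 to 0.570) of the trunk/ductal-like level. Ldhb was 1.85-fold (1.42 to 2.44) and Ndrg1 2.25-fold (1.56 to 3.34) higher. Egln3 had 23 UMIs in the Cym-high cluster and 1 in trunk/ductal-like cells (10.9-fold, 1.76 to 447).

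Mesenchyme-like and mesothelium-like cells, both of the OGT KO library, differed in 13 of 28 measured genes. Hk1 (2.41-fold, 1.18 to 5.42), Hk2, Slc2a3, Txnip (1.57-fold, 1.23 to 2.02) and Vegfa were higher in mesenchyme-like cells, against a background of 16.6% of 9736 genes. Bnip3 (0.366, 0.223 to 0.592), Eno1 (0.631, 0.562 to 0.707), Ldhb (0.637, 0.531 to 0.766), Car9, Egln3, Gpi1, Kdm3a and Ndrg1 were lower, against 13.5%.

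Between OGT KO and control cells of the same class, most of these genes stayed within 1.5-fold. In acinar-like cells 2 of 26 measured genes were higher in the OGT KO library (14.6% of all 9534 genes) and 3 lower (13.0%), with a median log2 ratio of 0.01 against 0.03 over all genes. In trunk/ductal-like cells 3 of 23 were higher (13.4% of 7124 genes) and 3 lower (12.6%), with medians of -0.03 and 0.03. In endocrine-like cells 5 of 19 were higher (23.0% of 6000 genes) and 2 lower (17.2%), with medians of -0.02 and 0.04. These unscaled shares are near or below those of all genes. Under TMM scaling 6 were higher and 1 lower in endocrine-like cells, with no all-gene share under that scaling given here.

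Acinar-like cells of the 2 libraries lay in different clusters, with 92 OGT KO cells and 1 control cell in cluster 6 and 49 control cells in cluster 13. Acinar markers summed to 42385 CPM in OGT KO and 59286 CPM in control acinar-like cells, with 13 of 24 measured markers at least 1.5-fold lower. Leukocyte markers summed to 614 CPM in OGT KO and 4740 CPM in control acinar-like cells, 579.9 and 4727 in trunk/ductal-like cells and 668 and 4727 in endocrine-like cells. All measured leukocyte markers (23, 21 and 16) were lower in OGT KO cells. Mesenchyme markers ran the other way, at 832 and 217 CPM in acinar-like, 1430 and 921 in trunk/ductal-like and 1320 and 403 in endocrine-like cells. Of the measured markers 12 of 13, 10 of 11 and 9 of 10 were higher in OGT KO cells. Among the mesenchymal regulators listed, Twist1 and Nkx3-2 were at 0 in both libraries. Prrx1, Nkx2-5 and Tbx3 had UMIs in OGT KO cells of all 3 classes and 0 in control cells. A list of genes known to be induced by tissue dissociation had 2 of 21 measured members higher and 8 lower in OGT KO acinar-like cells (all genes 14.6% and 13.0%), 2 and 5 of 20 in trunk/ductal-like cells (13.4% and 12.6%) and 5 and 2 of 20 in endocrine-like cells (23.0% and 17.2%). The part of these differences in the ratios was not tested.

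Mif was at least 1.5-fold higher in OGT KO cells in 3 of the 4 classes compared. Trunk/ductal-like cells held 1246 CPM in the OGT KO library and 697 CPM in the control library (1.79-fold, 1.58 to 2.02), endocrine-like cells 583 and 333 (1.75-fold, 1.33 to 2.35) and leukocyte-like cells 763 and 496 (1.54-fold, 1.35 to 1.75). In acinar-like cells it was 1678 and 1462 CPM (1.15-fold, 1.09 to 1.21). The ratio was above 1 in all 4 classes. Without the 5 cells highest in the gene in each library it was 1.94 in trunk/ductal-like, 2.25 in endocrine-like and 1.37 in leukocyte-like cells. That step takes a larger share of the library with fewer cells, which was control in trunk/ductal-like and endocrine-like cells. There it tends to raise the ratio, as for endocrine-like Gapdh (0.792 to 1.29). The values 1.94 and 2.25 are therefore no check on the Mif ratio. With each library clustered alone, 62 control cells fell in the endocrine-like class and 0 in the trunk/ductal-like class. The trunk/ductal markers Spp1 and Bicc1 stood beside Neurog3 and Chgb among the leading genes of those 62 cells. The endocrine-like Mif ratio was then 0.946, over a different set of control cells. Acinar-like cells held the highest Mif of the classes compared, and acinar markers summed to 7665 CPM in OGT KO and 4576 CPM in control trunk/ductal-like cells, 8975 and 4377 in endocrine-like cells and 7842 and 3981 in leukocyte-like cells. Of the measured acinar markers, 10 of 16, 11 of 13 and 12 of 20 were at least 1.5-fold higher there, and their part in the Mif ratios was not tested.

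Car9 and Ldhb differed in acinar-like cells. Car9 measured 104 CPM in OGT KO and 167 CPM in control acinar-like cells (0.622, 0.520 to 0.744) and 0.665 (0.539 to 0.824) without the 5 highest cells. At equal depth a Car9 UMI was found in 42.4% of OGT KO and 45.8% of control acinar-like cells, and in 22.2% and 3.99% of leukocyte-like cells. In trunk/ductal-like cells the Car9 ratio was 1.144 (0.631 to 2.15).

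Ldhb measured 39.6 CPM (116 UMIs) in OGT KO and 13.1 CPM (17 UMIs) in control acinar-like cells (3.01-fold, 1.80 to 5.35), and the ratio ranged from 2.00 to 4.32 over 11 alternatives. At equal depth 16.3% of OGT KO and 16.7% of control acinar-like cells had a UMI (67.4% and 28.0% at full depth), which goes against the level, so no order is read from the shares. Mesenchyme-like cells of the OGT KO library held 141 CPM of Ldhb and leukocyte-like cells 65.2 and 41.3 CPM, and markers of both cell types differed between the libraries as given above, and their part was not tested. In endocrine-like cells Ldhb had 30 OGT KO UMIs (42.2 CPM) and 0 control UMIs. Set against a floor of 3 control UMIs the ratio was 2.41, and the exact interval had a lower bound of 1.84 and no upper end. The ratio was 0.665 with each library clustered alone, over the different set of control cells given above.

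In endocrine-like cells Txnip was lower and Pgam1 higher in the OGT KO library. Txnip measured 179.95 CPM (128 UMIs) in OGT KO and 292 CPM (50 UMIs) in control endocrine-like cells (0.616, 0.441 to 0.872). Without the 5 highest cells it was 0.703 (0.417 to 1.25), an interval that includes 1. Leaving out 5 cells took a larger share of the 20 control than of the 42 OGT KO cells, which tends to raise the ratio. The other classes gave 1.08 in acinar-like, 0.856 in trunk/ductal-like and 1.02 in leukocyte-like cells. Pgam1 measured 312 CPM in OGT KO and 199 CPM in control cells (1.57-fold, 1.09 to 2.33), with ratios from 1.31 to 1.96 over the 9 alternatives that left enough cells. Vegfa, at 22.5 CPM in OGT KO and 64.3 CPM in control cells, rested on 16 OGT KO and 11 control UMIs (0.350, 0.153 to 0.834). Endocrine markers differed too, with 11 of 31 higher in OGT KO cells, among them Gcg, Ppy, Ghrl and Pyy, and 7 lower, among them Neurog3, Ins1 and Ins2.

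Hk2 and Bnip3 were at least 1.5-fold lower in OGT KO cells of 2 pancreatic classes. Hk2 measured 21.5 CPM in OGT KO and 38.7 CPM in control acinar-like cells (0.557, 0.378 to 0.824, or 0.634 and 0.391 to 1.04 without the 5 highest cells) and 13.0 and 32.3 in trunk/ductal-like cells (0.404, 0.170 to 0.928, from 11 and 16 UMIs). Control leukocyte-like cells held 99.4 CPM of Hk2, above every pancreatic class, and leukocyte markers were higher in all 3 control pancreatic classes, as given above. Bnip3 measured 22.2 CPM in OGT KO and 37.1 CPM in control acinar-like cells (0.598, 0.406 to 0.888), 17.8 and 28.2 in trunk/ductal-like cells (0.630, 0.284 to 1.41, but 1.29 without the 5 highest cells) and 33.7 and 35.1 in endocrine-like cells (0.962, 0.383 to 2.88). Leaving out 5 cells took a larger share of the smaller control classes, which tends to raise these ratios. Control leukocyte-like cells held 52.5 CPM of Bnip3 as well, and the part of leukocyte RNA in the Hk2 and Bnip3 ratios was not tested.

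The remaining calls rested on few UMIs. In acinar-like cells P4ha2 was 2.28-fold higher (0.938 to 6.69), and in trunk/ductal-like cells Slc2a1 was 1.76-fold (0.897 to 3.73) and Egln1 5.88-fold higher (1.43 to 51.9, from 20 and 2 UMIs), with Pdk1 at 0.623 (0.303 to 1.29). In endocrine-like cells Ankrd37 was 2.17-fold (0.518 to 19.2) and P4ha1 3.01-fold higher (0.750 to 26.2). All but the Egln1 interval include 1.

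The abundant enzymes showed small ratios with narrow intervals. Gapdh stood at 0.902 (0.854 to 0.953) in acinar-like, 0.925 (0.845 to 1.01) in trunk/ductal-like and 0.792 (0.646 to 0.977) in endocrine-like cells. Tpi1 (triose phosphate isomerase) was 1.136-fold (1.04 to 1.24), 1.21-fold (1.04 to 1.41) and 1.27-fold (0.962 to 1.70), and Ldha 1.08-fold (1.02 to 1.16), 1.11-fold (0.953 to 1.31) and 1.12-fold (0.780 to 1.66). Eno1 was 1.07-fold in acinar-like cells and 0.780 (0.686 to 0.888) in trunk/ductal-like cells. Of the 13 enzyme genes, Hk2 in acinar-like and trunk/ductal-like cells and Pgam1 in endocrine-like cells passed 1.5-fold.

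**Figure D5:**
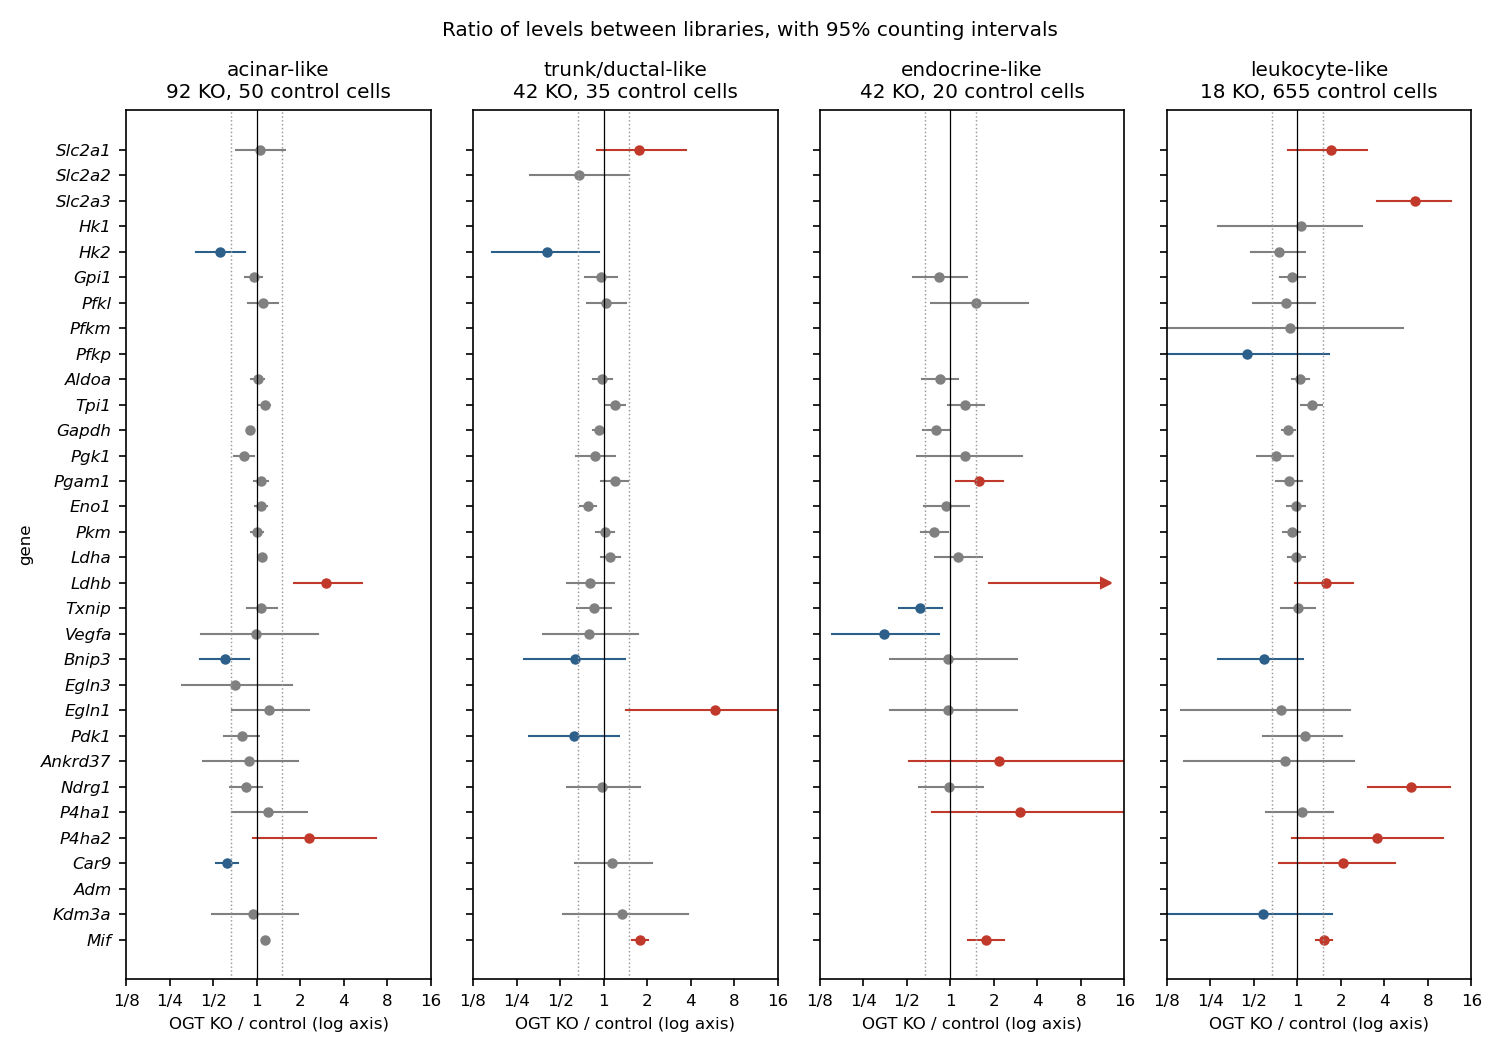
OGT KO over control ratio of each gene's level (log axis) with exact 95% counting intervals in 4 classes; red and blue mark ratios of at least 1.5-fold up or down (dotted lines), grey the rest, and genes under 20 UMIs are left blank. The arrow for Ldhb in endocrine-like cells starts at the lower bound of an interval with no upper end, and Mif lies above a ratio of 1 in every panel.

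Leukocyte-like cells gave 7 of 28 measured genes higher in the OGT KO library (18.1% of all 10540 genes) and 3 lower (23.0%). They numbered 18 OGT KO cells against 655 control cells. Median log2 ratios were -0.02 for these genes and 0.07 over all genes, where a count of 0 entered as the floor of 3 UMIs. The mixes differed, since clusters 1 and 8, led by Lyve1 and Pf4 or holding them among their leading genes, had 169 and 89 control cells and 0 OGT KO cells. Cluster 11 had 1 OGT KO and 61 control cells, and the other OGT KO cells were in clusters 2 (4), 4 (6), 5 (3) and 16 (4). TMM scaling gave 5 higher and 4 lower, with no all-gene share under that scaling given here. Slc2a3 was 6.58-fold (3.54 to 11.5) and Ndrg1 6.15-fold higher (3.08 to 11.4), at 49.7 and 40.3 CPM in OGT KO against 7.55 and 6.56 CPM in control cells. Without the 5 cells highest in the gene in each library no OGT KO UMI of Slc2a3 was left, and Ndrg1 was 3.50-fold (0.913 to 9.59). In these cells epithelium markers summed to 891 CPM in the OGT KO and 164 CPM in the control library and leukocyte markers to 20847 and 31343 CPM, with 10 of 23 lower; their part was not tested.

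Other genes of the same pathways, held in 2 lists, were counted in the same classes. Of 57 other genes of glycolysis, pyruvate, pentose phosphate and gluconeogenesis, 0 of 32 measured were higher and 8 lower in OGT KO acinar-like cells (median log2 -0.18), where 14.6% and 13.0% of all genes were. In trunk/ductal-like cells 4 of 24 were higher and 3 lower (median log2 -0.04), where 13.4% and 12.6% of all genes were, and in endocrine-like cells 1 of 22 higher and 2 lower (-0.06), where 23.0% and 17.2% were. Pgd, an enzyme of the pentose phosphate branch, measured 60.5 CPM in OGT KO and 99.7 CPM in control acinar-like cells (0.606, 0.480 to 0.766). The liver gluconeogenic genes G6pc and Pck1 were at 0 in both libraries in acinar-like cells.

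Of 55 further genes of the HIF pathway and hypoxia response, 7 of 42 measured were higher and 7 lower in OGT KO acinar-like cells (median log2 -0.16), 4 of 29 higher and 4 lower in trunk/ductal-like cells (0.14), and 8 of 26 higher and 6 lower in endocrine-like cells (-0.06). Of all genes, 14.6% were higher and 13.0% lower in acinar-like, 13.4% and 12.6% in trunk/ductal-like and 23.0% and 17.2% in endocrine-like cells. The acinar-like and trunk/ductal-like counts are near this background. Hif1a, the HIF subunit itself, measured 26.3 CPM in OGT KO and 20.9 CPM in control acinar-like cells (1.26-fold, 0.803 to 2.03). Bnip3l, a mitophagy receptor related to Bnip3, was 1.73-fold higher (1.32 to 2.30) in acinar-like cells, at 89.8 CPM in OGT KO and 51.8 CPM in control cells, where Bnip3 was lower. Hmox1, the heme-degrading enzyme of macrophages, measured 14.3 CPM in OGT KO and 97.4 CPM in control acinar-like cells (0.147, 0.101 to 0.210), beside the leukocyte markers given above, and Sap30 measured 47.8 CPM in OGT KO and 78.9 CPM in control ones (0.606, 0.466 to 0.790). In endocrine-like cells the HIF antagonist Cited2 was 2.17-fold (1.29 to 3.89) and the metallothionein gene Mt1 2.46-fold higher (1.89 to 3.27), at 202 and 863 CPM in OGT KO and 93.5 and 351 CPM in control cells.

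In leukocyte-like cells 3 of 40 measured glucose genes were higher and 12 lower (median log2 -0.08). Of 39 hypoxia genes 6 were higher and 11 lower (0.13), where 18.1% of all genes were higher and 23.0% lower. In these medians a count of 0 was set to the floor of 3 UMIs, which is high for the small OGT KO class. Pfkfb1, with 0 OGT KO and 23 control UMIs, was called lower but entered at a ratio of 3.27. The 2 medians are therefore not read for direction. Mxi1, a repressor related to Max-binding proteins, was 2.35-fold higher (1.31 to 3.92), and Zfp395 had 1 OGT KO and 153 control UMIs (0.164, 0.00412 to 0.927).

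Several of these genes share reads or ground with others. Processed pseudogenes of Gapdh, Ldha, Pgk1 and other glycolytic genes can take or give reads, and on GRCm38 Tpi1 overlaps Spsb2, Gapdh overlaps Iffo1 and Txnip overlaps Gm15441 on the opposite strand. Whether counting used strand is not given in the sources used here, so these levels carry that uncertainty in both libraries.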

How the data were processed

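Whole-number UMI counts per gene and cell were used as deposited, in 1 table per genotype. The reads were processed with Cell Ranger 2.0.0 and mm10, per the submitters' processing notes, which also name Seurat 2.0 and DESeq2 1.14.1. The sources used here do not give the barcode selection or the strand setting. The 4 samples are 2 repeat sequencing runs of each genotype, which the tables do not separate, so each genotype counted as 1 library and pairing by run number could not be checked. The genes, the gene lists and the comparisons were chosen with earlier results of these data known.

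Symbols came from GENCODE M21 (GRCm38). Barcodes were kept from 500 detected genes upward and up to 10% mitochondrial UMIs, leaving 554 OGT KO and 919 control cells after Scrublet removed 7 and 6 doublets. Cells were clustered together without correction (scanpy 1.11.5, 2000 variable genes, 30 components, 15 neighbours, leidenalg 0.10.2 at resolution 1), with the 32 genes and both pathway lists left out. Clusters were named by the marker list with the highest mean scaled level, given at least 3 detected markers and no more markers of another list than of its own among the 10 leading genes; this naming rule was set with the clusters in view.

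UMIs were summed by class and library. Levels carry exact Poisson, ratios exact conditional and shares exact binomial 95% intervals (scipy 1.17.1), all for counting error only. Ratios were read at 1.5-fold among genes with at least 20 UMIs. Values were given for genes with at least 100 UMIs, a ratio of at least 1.5 either way and an interval that excludes 1, for the highest and lowest genes of a class, and for Slc2a1, Slc2a2, Txnip, Hk1, Hk2, Ldha, Ldhb, Bnip3, Vegfa, Egln3 and Pdk1; other values were given because they stood out once seen. The ratio intervals were checked on counts simulated with Poisson error alone. That check cannot show how they hold under variation between cells or embryos. Alternatives included TMM (edgeR 4.0.16) and size-factor scaling (DESeq2 1.42.0), other filters and clusterings, other floors, and leaving out the 5 cells highest in a gene. Leaving out 5 cells takes a larger share of a smaller class, which tends to move a ratio in favour of the library with more cells.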

Additional observations from a re-analysis of the deposited data

How the results depend on the processing

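No paired analysis was possible because the repeat sequencing runs of a genotype are in 1 table. The limits are 1 library a genotype, sorts that differ, and small classes (20 control endocrine-like and 18 OGT KO leukocyte-like cells). Across alternatives 939 gene ratios between libraries stayed on their side, 62 moved and 3 reversed, of the counts of members 191 stayed within 1.5 times and 49 moved, and of the ratios between classes 424 stayed, 40 moved and 3 reversed. Equal-depth shares of cells were the least stable, with 44 the same and 36 moved when cells were thinned to 3000 UMIs or not thinned. The cause was not tested except where fewer genes or cells enter by construction. Clustering the control library alone put 62 cells in the endocrine-like class and 0 in the trunk/ductal-like class. Its endocrine-like values under that setting therefore describe a different set of cells. The OGT KO library clustered alone had 88 trunk/ductal-like cells instead of 42, and 49 leukocyte-like cells instead of 18. Values of those 2 classes under that setting also describe different cells. Reversed were Ldhb (0.665) and Mif (0.946) in endocrine-like cells with each library clustered alone, Slc2a3 (0) in leukocyte-like cells without the 5 highest cells, and Gapdh in acinar-like over trunk/ductal-like OGT KO cells (1.19 under TMM, 1.20 under DESeq2 size factors, 1.03 on totals that leave out digestive enzyme, hormone, ribosomal and mitochondrial genes).

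The counts from here on are of these genes alone. Shares of all genes under each setting are not given here, so the counts show only how far they move and not a result about these genes. For OGT KO over control, acinar-like cells had 5 genes higher without the 5 highest cells, 1 with at least 50 UMIs, and 0 lower at a fold limit of 2. Trunk/ductal-like cells had 1 higher and 0 lower with at least 50 UMIs, and 5 and 7 with no floor. They had 1 and 1 at a fold limit of 2. With the Cym-high cluster joined, 7 of 29 measured genes were higher and 12 lower. Endocrine-like cells had 10 higher and 1 lower without the 5 highest cells (5 of 20 control and 5 of 42 OGT KO cells). They had 2 and 1 with at least 50 UMIs, and 3 and 1 at a fold limit of 2. Counts of lower genes were 10 with each library clustered alone, 1 under TMM, 1 by the mean of cells and 6 with no floor. Leukocyte-like cells had 4 higher at most 5% mitochondrial UMIs, 4 higher and 1 lower at a fold limit of 2, 1 higher and 16 lower without the 5 highest cells (5 of 18 OGT KO cells), and 1 lower by the mean of cells.

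Between classes, acinar-like over endocrine-like cells had 6 higher in the control library clustered alone and 5 lower in the OGT KO library with at least 50 UMIs. Acinar-like over trunk/ductal-like cells had, in the OGT KO library, 10 higher and 3 lower under TMM and under DESeq2 size factors, 2 and 3 at a fold limit of 2, and 5 lower at most 5% mitochondrial UMIs, 5 clustered alone and 4 with at least 50 UMIs; in the control library, 12 and 3 under TMM, 11 and 3 under DESeq2 size factors and 3 and 3 at a fold limit of 2. Trunk/ductal-like over endocrine-like cells had 11 higher in the control library under TMM and under DESeq2 size factors, 1 lower in either library with at least 50 UMIs, and 2 lower in the OGT KO library at most 5% mitochondrial UMIs. Under 15 cells no value was taken, which left out control trunk/ductal-like cells when clustered alone (0 cells) and control endocrine-like cells at most 5% mitochondrial UMIs (10 cells) and at resolution 2 (13 cells).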
